A study of Mus musculus with 9 samples.

Results

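The clade B serpins described here are 7 genes of 24062 in the counts table: Serpinb9b, Serpinb9, Serpinb6a, Serpinb6b, Serpinb2, Serpinb8 and Serpinb1a. Serpinb9b was chosen by its measured difference between p21 and empty vector libraries, where its transcript was higher with p21, and the others are the further members of its family named with it. The libraries came from mouse embryonic fibroblasts (MEFs, connective tissue cells grown from embryos) of the C57BL/6 strain. They received a lentivirus carrying p21 (the product of Cdkn1a, an inhibitor of cyclin-dependent kinases), a lentivirus carrying p16 (a product of Cdkn2a, an inhibitor of CDK4 and CDK6), or an empty vector. All were harvested on day 4, all groups are labelled non-senescent, and each group held 3 libraries. The promoter of the lentiviral insert and the origin of the replicates (embryos or cultures) are not given in the labels, so p-values measure the spread between these samples. Replicate 3 of each group stood apart from the others in its Xist level, given below. The replicates thus do not look like repeats of the same cells throughout, and the source of replicate 3 was not tested. The spread between the remaining replicates may be technical.

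Serpins of clade B are inhibitors of proteases that, unlike most other serpins, lack a classical signal peptide and act mainly inside the cell. A serpin offers an exposed loop as bait. The protease that cuts it is trapped in a covalent complex, and the inhibitor is used up. Members of the clade are best known for shielding cells from granule proteases, such as the granzymes of cytotoxic lymphocytes and the serine proteases of neutrophils, and rodents carry expanded sets of near relatives in clusters.

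The libraries held 44455730 to 63152239 counted reads. Of the symbols in the table, 14223 passed the filter on low counts and were tested with edgeR's quasi-likelihood test, with Benjamini-Hochberg adjustment over all of them and a threshold of 0.05. Levels are given in CPM, reads of a gene per 1e6 reads of the library, with library size scaled by TMM. Cdkn1a was at 1605 ± 172 CPM in p21 libraries and 360.2 ± 12.8 CPM in empty vector libraries, and Cdkn2a was at 1731 ± 179 CPM in p16 libraries and 37.9 ± 3.86 CPM in empty vector libraries (SD, n = 3 each). All 12 listed fibroblast markers passed the filter. The replicate 3 libraries of all groups stood apart: Xist was at 181 to 251 CPM in them and at 6.96 CPM or less in every other library, and for that reason the member counts below are also given for replicates 1 and 2 alone. Markers of macrophages and other leukocytes were present as well, with summed levels of 46.4 to 64.7 CPM in p21 libraries, 37.4 to 65.0 CPM in p16 libraries and 29.5 to 46.7 CPM in empty vector libraries (15 genes in the table, scaled by library totals alone). With p21, 7 of the 15 rose and 0 fell, where 19.8% of all tested genes rose and 20.1% fell. DESeq2 and limma-voom each gave the same split, 7 higher and 0 lower, and by edgeR none was lower at an unadjusted p under 0.05. With the replicate number as a block in the fit, 10 rose and 0 fell, where 24% of all genes were called higher. The part of these cells in the serpin values was not tested.

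All 7 members passed the filter, and each lay above its cutoff of 0.187 CPM in 9 of 9 libraries. Serpinb6a was by far the most abundant transcript per length of annotated exon, at 48.8 ± 3.58 CPM per kb in p21 libraries, 43.2 ± 0.392 CPM per kb in p16 libraries and 40.1 ± 1.09 CPM per kb in empty vector libraries (SD, n = 3 each). Serpinb9b was next in every group, at 14.9 ± 2.05 CPM per kb with p21, 7.91 ± 0.975 CPM per kb with p16 and 4.98 ± 0.728 CPM per kb with the empty vector. Serpinb1a came last, with 0.303 ± 0.261, 0.448 ± 0.228 and 0.435 ± 0.206 CPM per kb in p21, p16 and empty vector libraries. The order in the middle differed between groups. Serpinb2 (4.62 to 6.98 CPM per kb) stood above Serpinb9 (2.73 to 3.45 CPM per kb) in the p21 libraries, whereas both overlapped in the p16 libraries (2.43 to 4.17 and 2.82 to 3.46 CPM per kb) and in the empty vector libraries (2.0 to 2.6 and 2.55 to 3.13 CPM per kb). Serpinb6b overlapped Serpinb9 in the p21 libraries alone, at 2.17 to 3.03 CPM per kb. Serpinb8 lay between Serpinb6b and Serpinb1a by mean level in each group, overlapping Serpinb6b in the empty vector libraries at 0.931 to 1.08 and 0.942 to 1.43 CPM per kb.

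Together the 7 genes took 327 to 373 CPM in the p21 libraries, 286 to 292 CPM in the p16 libraries and 255 to 269 CPM in the empty vector libraries (scaled by library totals alone). Serpinb6a made up most of this sum in every group, and Serpinb9b had the next highest level. The summed level did not overlap between any pair of groups. The sum holds Serpinb9b, which was chosen for its rise with p21, so this is a description. Of all tested genes, 24.2% were higher without overlap in p21 than in empty vector libraries. The share was 16.1% for p16 against the empty vector and 14.9% for p21 against p16.

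**Figure D1:**
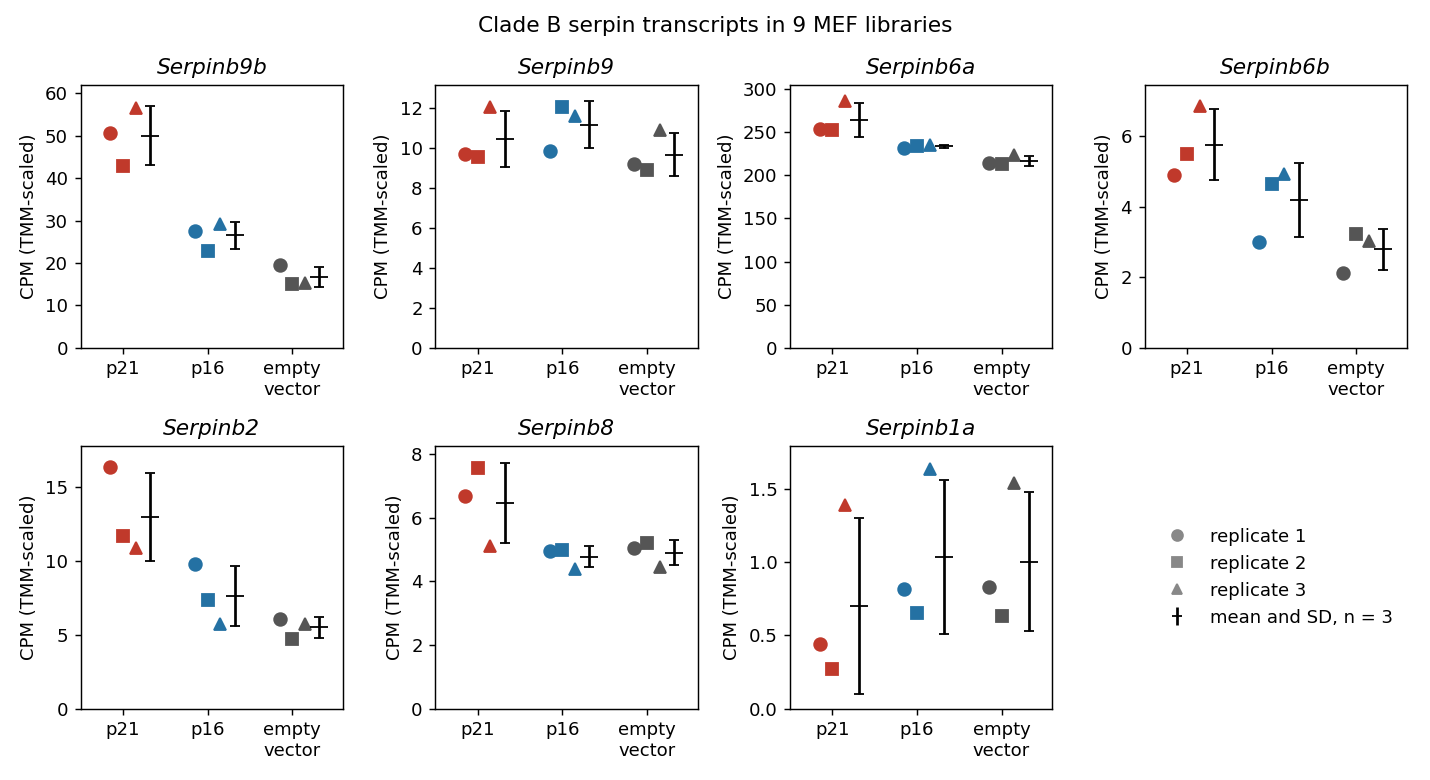
Each panel shows 1 clade B serpin, with the level in CPM on the y axis (TMM-scaled, starting at 0) and the groups p21, p16 and empty vector on the x axis; symbols mark replicates 1, 2 and 3, and the bar gives the mean and SD (n = 3). Serpinb9b sits at 42.8 to 56.6 CPM with p21, above all p16 (22.8 to 29.1 CPM) and all empty vector libraries (15.2 to 19.5 CPM), while Serpinb9 overlaps between groups and Serpinb1a is highest in replicate 3 of each group.

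Serpinb9b and Serpinb9 are neighbours. The transcript of Serpinb9b was higher with both inhibitors, with p21 by the choice of the gene, and that of Serpinb9 passed the test with neither. The difference between both genes was not tested. Serpinb9 is the mouse inhibitor of granzyme B, the main death-inducing protease of cytotoxic lymphocytes, and Serpinb9b is a close paralog whose product binds granzyme M in mouse. Serpinb9b lies on chromosome 13 (33027416 to 33041884 in GRCm38, the mm10 build, plus strand), 9.5 kb beyond the end of Serpinb9 (33003250 to 33017957, plus strand).

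Serpinb9b stood at 50.6, 42.8 and 56.6 CPM in p21 replicates 1, 2 and 3, at 27.5, 22.8 and 29.1 CPM in p16 replicates 1, 2 and 3, and at 19.5, 15.2 and 15.4 CPM in empty vector replicates 1, 2 and 3. No 2 groups overlapped, with p21 highest and the empty vector lowest. The mean was 49.98 ± 6.88 CPM with p21 against 16.7 ± 2.44 CPM with the empty vector (SD, n = 3 each), a ratio of 3.0 and a log2 fold change of 1.58. This is the value for which the gene was chosen, so it has no test here, and neither has the log2 fold change of 0.92 for p21 against p16, which uses the same p21 libraries. By replicate number, the log2 difference of p21 from the empty vector was 1.37, 1.5 and 1.88.

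The p16 libraries had no part in choosing the gene, but the empty vector libraries did. A choice that favours low empty vector values also favours a difference from p16, so the test that follows is not independent of it. Serpinb9b rose with p16 to 26.5 ± 3.27 CPM, against 16.7 ± 2.44 CPM with the empty vector (SD, n = 3 each), with a log2 fold change of 0.66 ± 0.12 (SE) and an edgeR adjusted p of 0.00482. It was higher in 3 of 3 pairs of replicate numbers, by 0.50, 0.59 and 0.92 on the log2 scale. The call held in all 18 alternative settings, with log2 fold changes of 0.54 to 0.79 and adjusted p-values up to 0.0279. Of its exon bases 8.3% also belong to Gm36099, annotated on the other strand, and the library kit keeps no strand.

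Serpinb9 stood at 9.73, 9.55 and 12.1 CPM in p21 libraries, 9.86, 12.1 and 11.6 CPM in p16 libraries and 9.20, 8.92 and 10.9 CPM in empty vector libraries. All groups overlapped. The log2 fold change was 0.11 ± 0.11 (SE) with p21 (edgeR adjusted p = 0.47) and 0.21 ± 0.11 with p16 (edgeR adjusted p = 0.268), and it was -0.10 ± 0.11 for p21 against p16 (edgeR adjusted p = 0.635). None of 18 alternative settings gave a call in any comparison. Few of the sequence stretches of Serpinb9 could be mistaken for another gene: 0.38% of its 50-base stretches also occur in transcripts of other genes (Serpinb9b), against 5.38% for Serpinb9b, whose largest share of such stretches is with Gm36099.

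The promoters of both genes are shown because they are related in sequence and the genes are neighbours. Each is the 250 bases before the RefSeq start in GRCm38.p6, 5′ to 3′ on the plus strand, and capitals mark the stretch that aligns between the genes. The Serpinb9 window is chr13:33004291-33004540, which lies within the first intron of a longer annotated transcript of that gene, and the Serpinb9b window is chr13:33027164-33027413.
Serpinb9: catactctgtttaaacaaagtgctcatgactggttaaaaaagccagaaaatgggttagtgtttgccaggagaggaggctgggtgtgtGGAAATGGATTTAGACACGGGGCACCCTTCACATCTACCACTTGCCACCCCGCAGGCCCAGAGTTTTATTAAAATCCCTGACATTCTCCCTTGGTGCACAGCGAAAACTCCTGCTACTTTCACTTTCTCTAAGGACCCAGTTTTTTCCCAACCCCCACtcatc
Serpinb9b: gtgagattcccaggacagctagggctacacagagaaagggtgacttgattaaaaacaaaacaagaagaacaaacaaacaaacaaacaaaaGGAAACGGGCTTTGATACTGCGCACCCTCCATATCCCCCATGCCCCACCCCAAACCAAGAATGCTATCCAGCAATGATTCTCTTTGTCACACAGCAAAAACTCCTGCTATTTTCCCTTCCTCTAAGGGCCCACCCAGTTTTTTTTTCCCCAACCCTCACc
The capitals span 158 bases in Serpinb9 and 159 bases in Serpinb9b, and 118 of the 167 alignment columns are identical (70.7%), with 32 mismatches and 17 gap columns. The alignment of the Serpinb9 window with that of Serpinb9b scored 85. Of the 32850 windows of genes other than Serpinb9b, which include that of Serpinb9, none scored higher against it.

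A total of 5 short motifs were searched on both strands of these windows, chosen after the sequences had been seen. The core of the interferon response element (GAAA, any 2 bases, GAAA), found in 2.98% of 32851 promoter windows of this length, matched once in Serpinb9, as TTTCACTTTC on the given strand starting 46 bases before the start, and not in Serpinb9b. The AP-1 motif TGANTCA (6.75% of windows), the TATA box TATAAA (12.4%), the NF-kB motif of GGGA, any 4 bases and CC (17.6%) and the cell cycle homology region core TTTGAA (16%) matched in neither window. Among the other members, 6 of 7 with a RefSeq window counting both genes above, AP-1 matched in Serpinb2 (TGAATCA, 94 bases before the start) and Serpinb8 (TGAGTCA, 23 bases before the start), and the TATA box matched in Serpinb2 (29 bases before the start). The interferon element also matched in Serpinb6a as TTTCGATTTC, 84 bases before the start. The TTTGAA core matched in Serpinb2 (185 and 64 bases before the start), Serpinb6a (66 bases) and Serpinb8 (201 bases), and the NF-kB motif matched in Serpinb8 (53 bases). Serpinb2 and Serpinb6a have 2 windows each, of which only the first was searched for these matches. All are matches of letters in a window and were not set against the expression values.

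**Figure D2:**
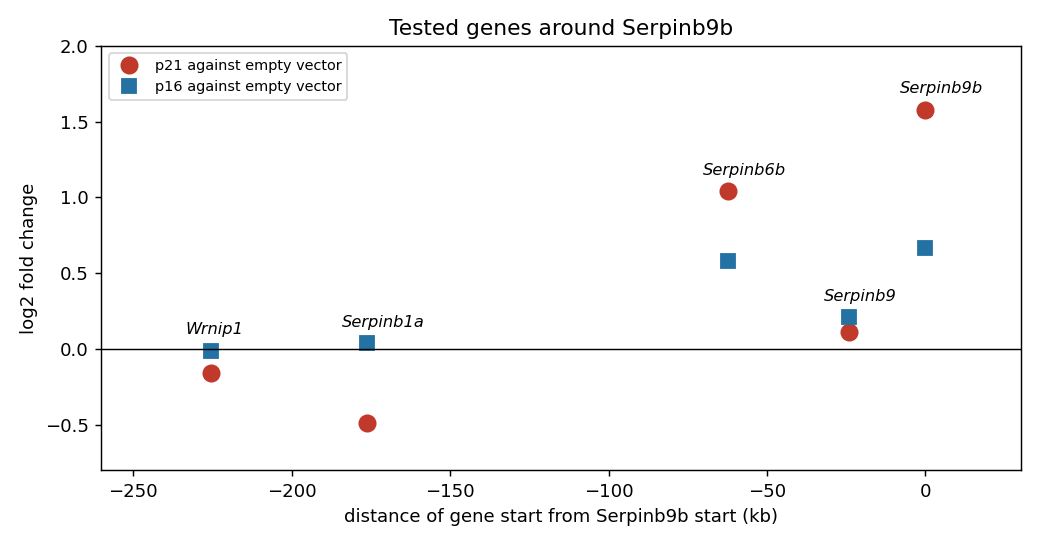
The x axis gives the distance in kb of each tested gene's start from the start of Serpinb9b, and the y axis the log2 fold change of p21 (circles) and p16 (squares) against the empty vector. Serpinb9, the nearest tested gene, lies at 0.11 and 0.21, while Serpinb6b, 62.2 kb before it, lies at 1.04 and 0.58.

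Within 500 kb of Serpinb9b only 4 other genes passed the filter on low counts: Serpinb9, Serpinb6b, Serpinb1a and Wrnip1, a DNA repair gene that is not a serpin. With p21, 1 of them rose (Serpinb6b) and 1 fell (Wrnip1, log2 fold change -0.16, edgeR adjusted p = 0.0115), where 19.8% of all tested genes rose and 20.1% fell. With p16 none passed the edgeR test, where 5.8% of all tested genes rose and 5.56% fell.

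Of the inhibitors of the Serpinb6 branch, both Serpinb6a and Serpinb6b rose with p21. Serpinb6a, which inhibits cathepsin G and trypsin-like proteases, is on chromosome 13 (33917918 to 34002794, minus strand), and its paralog Serpinb6b is on the same chromosome next to Serpinb9 (32965209 to 32979067, plus strand), 24.2 kb before it.

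Serpinb6a stood at 254, 252 and 286 CPM in p21 replicates 1, 2 and 3, at 231, 234 and 235 CPM in p16 replicates 1, 2 and 3, and at 214, 213 and 223 CPM in empty vector replicates 1, 2 and 3. The groups did not overlap, and the differences were small against the level. The log2 fold change with p21 was 0.29 ± 0.045 (SE, edgeR adjusted p = 0.000328), and all 18 alternative settings gave the call. With p16 it was 0.11 ± 0.045 (edgeR adjusted p = 0.149), which passed with the replicate number as a block (adjusted p = 0.0261), with only both groups fitted (0.0404), with replicates 1 and 2 alone (0.0401) and without p21 replicate 3 (0.0271). Between p21 and p16 it was 0.18 ± 0.045 (edgeR adjusted p = 0.0226), a call lost without p16 replicate 1, 2 or 3 (adjusted p = 0.0759, 0.0706 and 0.0509). Of the exon bases of Serpinb6a, 29.3% are shared with genes annotated on the opposite strand, Nqo2, Ripk1 and 1110046J04Rik, and reads there cannot be told apart. With p21, Nqo2 had a log2 fold change of -0.09 ± 0.057 (edgeR adjusted p = 0.208) and Ripk1 one of 0.13 ± 0.047 (edgeR adjusted p = 0.049). 1110046J04Rik rose with p21, at 3.20 CPM against 2.40 CPM with the empty vector (0.41 ± 0.14, edgeR adjusted p = 0.0321).

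Serpinb6b, whose product inhibits granzyme A in mouse, stood at 4.90, 5.49 and 6.86 CPM in p21 replicates 1, 2 and 3, at 2.99, 4.63 and 4.93 CPM in p16 replicates 1, 2 and 3, and at 2.13, 3.22 and 3.03 CPM in empty vector replicates 1, 2 and 3. All p21 libraries lay above all empty vector libraries, and the p16 libraries overlapped both other groups. The log2 fold change with p21 was 1.04 ± 0.21 (SE, edgeR adjusted p = 0.00166), again a call in all 18 alternative settings. With p16 it was 0.58 ± 0.21 (edgeR adjusted p = 0.0964), and it passed with the replicate block (adjusted p = 0.00199), with DESeq2 (0.0355) and without p16 replicate 1 (0.0327). The p21 libraries set against p16 gave 0.46 ± 0.20 (edgeR adjusted p = 0.159), with a call under the replicate block (adjusted p = 0.00435). The replicate 1 library was the lowest of each group for this gene, which the block takes into account.

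Serpinb2 also rose with p21. It encodes plasminogen activator inhibitor 2, which blocks urokinase and tissue plasminogen activator, and lies on chromosome 1 (107511423 to 107535478, plus strand). Serpinb8 is the next member along that cluster, 54.5 kb beyond its end (107590006 to 107610484, plus strand), and its human product inhibits furin.

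Serpinb2 stood at 16.4, 11.7 and 10.9 CPM in p21 replicates 1, 2 and 3, at 9.79, 7.36 and 5.71 CPM in p16 replicates 1, 2 and 3, and at 6.10, 4.70 and 5.70 CPM in empty vector replicates 1, 2 and 3. All p21 libraries lay above every other library, and the p16 libraries overlapped those of the empty vector. The log2 fold change with p21 was 1.24 ± 0.19 (SE, edgeR adjusted p = 0.000294), a ratio of means of 2.36, and all 18 alternative settings gave the call. With p16 it was 0.47 ± 0.20 (edgeR adjusted p = 0.148). The p16 difference was 0.68 and 0.64 on the log2 scale in replicates 1 and 2 and 0.00055 in replicate 3, and the edgeR test gave a call for replicates 1 and 2 alone (0.66, adjusted p = 0.0225) and with the replicate block (0.47, edgeR adjusted p = 0.00266). Set against p16, the p21 libraries gave 0.77 ± 0.19 (edgeR adjusted p = 0.019), and the call was lost without p21 replicate 1 (0.56, adjusted p = 0.0906), p16 replicate 2 (adjusted p = 0.0693) or p16 replicate 3 (adjusted p = 0.0566). Serpinb2 shares 12.4% of its exon bases with Serpinb10 on the same strand. Serpinb10 was at 0.20, 0.36 and 0.70 CPM in p21 libraries, 0.32, 0.080 and 0.49 CPM in p16 libraries and 0.32, 0.39 and 0.17 CPM in empty vector libraries.

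Serpinb8 stood at 6.70, 7.58 and 5.11 CPM in p21 replicates 1, 2 and 3, at 4.95, 4.99 and 4.40 CPM in p16 replicates 1, 2 and 3, and at 5.05, 5.20 and 4.46 CPM in empty vector replicates 1, 2 and 3. p21 replicate 3 lay within the range of the empty vector libraries, and replicate 3 was the lowest of each group. The log2 fold change with p21 was 0.39 ± 0.14 (SE, edgeR adjusted p = 0.0373). The call was lost in 8 of 18 alternative settings, among them without p21 replicate 1 (adjusted p = 0.106), p21 replicate 2 (0.149) and empty vector replicate 1, 2 or 3 (0.0699, 0.0574 and 0.111). With p16 the log2 fold change was -0.04 ± 0.14 (edgeR adjusted p = 0.906). For p21 against p16 it was 0.43 ± 0.14 (edgeR adjusted p = 0.0579), and it passed with the replicate block (adjusted p = 0.00425), with replicates 1 and 2 alone (0.00964), without p21 replicate 3 (0.00756), with DESeq2 (0.0262) and without the filter (0.0419).

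Serpinb1a, an inhibitor of neutrophil elastase, proteinase 3 and cathepsin G that is abundant in myeloid cells, did not pass the test in any of the 3 comparisons and was highest in replicate 3 of each group. It lies on chromosome 13 (32842092 to 32851185, minus strand). It stood at 0.44, 0.27 and 1.39 CPM in p21 replicates 1, 2 and 3, at 0.81, 0.65 and 1.63 CPM in p16 replicates 1, 2 and 3, and at 0.83, 0.63 and 1.54 CPM in empty vector replicates 1, 2 and 3. These levels rest on 12 to 80 counts per library. Each replicate 3 library exceeded every replicate 1 and 2 library. The summed leukocyte markers were also highest in replicate 3 of each group, at 64.7, 65.0 and 46.7 CPM in p21, p16 and empty vector libraries, and their part in this was not tested. The log2 fold change was -0.49 ± 0.54 (SE, edgeR adjusted p = 0.511) with p21, 0.04 ± 0.52 (edgeR adjusted p = 0.973) with p16 and -0.53 ± 0.54 (edgeR adjusted p = 0.586) for p21 against p16. By replicate number it was lower with p21 in 3 of 3 pairs, with log2 differences of -0.87, -1.12 and -0.15 from the empty vector and of -0.84, -1.16 and -0.23 from p16. With the replicate block the log2 fold changes were -0.62 (edgeR adjusted p = 0.0696) and -0.65 (edgeR adjusted p = 0.0947). Serpinb1a fell with p21 when p21 replicate 3 was left out (-1.44, edgeR adjusted p = 0.0475), which leaves the high replicate 3 libraries in the other groups.

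**Figure D3:**
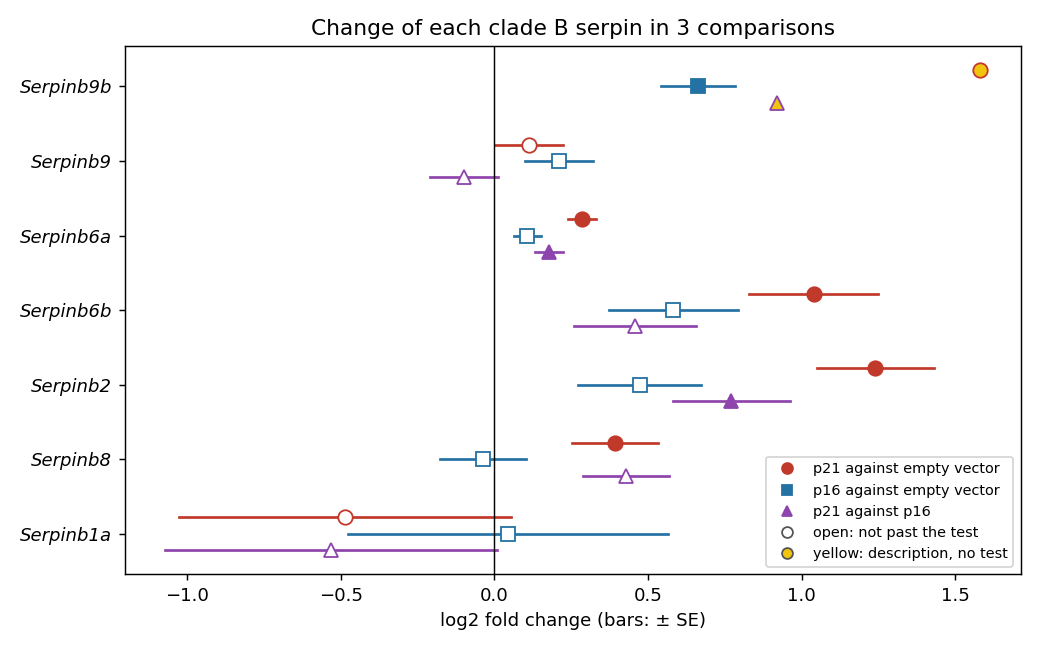
Rows are the 7 clade B serpins, the x axis is the log2 fold change, and bars are ± SE from the edgeR fit of 9 libraries; filled symbols passed the test, open ones did not, and yellow ones are descriptions without a test. Serpinb2 and Serpinb6b lie above 1 with p21, Serpinb6a at 0.29 with the narrowest bars, and Serpinb1a has the widest bars, of up to 0.54.

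Counted together, 4 of the 6 members other than Serpinb9b rose with p21 and 0 fell, where 19.8% of all tested genes rose and 20.1% fell. Scaled by library totals alone, 2173 of all genes were called higher and 3734 lower, against 2816 and 2865 with TMM, and 3 of the 6 members were called. In the fit without the block, no member was lower at an unadjusted p under 0.05 by edgeR, and neither DESeq2 nor limma-voom called one lower. With the block 1 was lower at an unadjusted p under 0.05, and without p21 replicate 3, 1 was called lower, Serpinb1a. With replicates 1 and 2 alone 4 members passed, as with the replicate block, where 24% of all genes were called higher. The median log2 fold change of the 6 was 0.34, beside 0.0011 over all genes. The groups did not overlap, with p21 higher, for 3 of the 6, as for 24.2% of all genes. Since the members were named with these results known, these counts describe them and support nothing further.

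With p16, 1 of 7 members rose, Serpinb9b, whose test shares the empty vector libraries that chose it, and 0 fell, where 5.8% of all tested genes rose and 5.56% fell (825 higher and 791 lower, or 617 and 1235 when scaled by library totals alone). Of the other 6 members 0 passed. Among these, edgeR had Serpinb2, Serpinb6a and Serpinb6b higher at an unadjusted p under 0.05 and none lower, DESeq2 called 1 higher (Serpinb6b) and limma-voom 0, and neither called one lower. The p16 and empty vector libraries did not overlap, with p16 higher, for Serpinb9b and Serpinb6a, as for 16.1% of all genes. With the replicate block, Serpinb2, Serpinb6a and Serpinb6b passed as well, making 4 of 7, where 11.3% of all genes were called higher, and with replicates 1 and 2 alone 3 passed. Each of the groups p21 and p16 was compared with the same empty vector libraries, so the log2 fold changes of both comparisons share that part of their error. For p21 against p16, which does not use them, 2 of 6 members were higher with p21, Serpinb2 and Serpinb6a, where 6.15% of all genes were higher and 6.91% lower (875 higher and 983 lower, or 735 and 1254 by library totals alone). The p21 and p16 libraries did not overlap, with p21 higher, for 3 of the 6, Serpinb2, Serpinb6a and Serpinb8, as for 14.9% of all genes. In the fit without the block none was lower by edgeR at an unadjusted p under 0.05. Neither DESeq2 nor limma-voom called one lower. With the replicate block 1 was lower at an unadjusted p under 0.05 and none was called lower, and Serpinb6b and Serpinb8 passed as higher too, making 4 of 6, where 11% of all genes were called higher, and replicates 1 and 2 alone gave 3. The test of p21 against p16 is the test of the difference between both effects, so Serpinb9, Serpinb1a and, without the block, Serpinb6b and Serpinb8 are not shown to respond differently to p21 and p16.

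The transcripts most like Serpinb9b were sought among 11301 other genes with a mean log2 CPM of at least 1, by Pearson correlation of log2 CPM over the 9 libraries, which share their group differences. The 5 highest were Ngfrap1 (r = 0.995), Dynlrb1 (0.992), Tm2d2 (0.988), Arhgap12 (0.986) and Col8a1 (0.985). Col8a1 encodes a chain of collagen VIII, and Dynlrb1 a light chain of cytoplasmic dynein. Their means were in the same order as that of Serpinb9b but closer together, for example 171, 135 and 111 CPM for Ngfrap1 in p21, p16 and empty vector libraries. Among the members Serpinb6a was most like it, at r = 0.922 and rank 498, followed by Serpinb2 (0.873), Serpinb6b (0.783), Serpinb8 (0.569), Serpinb9 (0.24) and Serpinb1a (-0.259).

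Of the 20 other clade B serpins in the table, 1 was tested, Serpinb10, which passed in no comparison (edgeR adjusted p of 0.551 with p21 and 0.962 with p16). The remaining 19 included 10 without a read in any library, and none exceeded 10 counts in a library. Counted clade B reads in these libraries were thus nearly all from the 7 members, the others summing to at most 1.23 CPM. How reads matching several genes were counted is not given, so low counts of near relatives need not mean low transcript.

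Serpins of other clades, most of them secreted, were compared as the wider family. Of 35 listed, 7 were tested. With p21, 0 rose and 1 fell by edgeR, where 19.8% of all tested genes rose and 20.1% fell. At an unadjusted p under 0.05, 2 were higher. DESeq2 called 1 higher and 1 lower, and limma-voom called 0 higher and 1 lower. With p16, 0 passed the edgeR test, where 5.8% of all tested genes rose and 5.56% fell. There 1 was higher and 0 lower at an unadjusted p under 0.05, and neither DESeq2 nor limma-voom called any. Their median log2 fold changes were 0.096 with p21 and 0.15 with p16, beside 0.0011 and 0.0017 over all genes. With the replicate block 2 rose and 1 fell with p21, where 24% of all genes were called higher. With p16, 2 rose with the block, where 11.3% of all genes were called higher. Serpina3g fell with p21, at 8.18 CPM against 10.4 CPM with the empty vector (-0.34 ± 0.11, edgeR adjusted p = 0.0275), a call that was lost without p21 replicate 1 or empty vector replicate 3, where 0 of the 7 passed. Serpini1 (0.54 ± 0.22, edgeR adjusted p = 0.0667), the complement C1 inhibitor Serping1 (0.39 ± 0.16, edgeR adjusted p = 0.0677) and Serpina3h (0.48 ± 0.22, edgeR adjusted p = 0.106) did not pass with p21. Between p21 and p16, 1 was lower, the collagen chaperone Serpinh1 (-0.12 ± 0.033, edgeR adjusted p = 0.0337), where 6.15% of all genes were higher and 6.91% lower. None of the 7 passed there when any p21 or p16 replicate, or empty vector replicate 3, was left out. With all libraries and the replicate block, 2 were lower with p21 than with p16.

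The proteases that these inhibitors or their relatives meet, together with caspases and cysteine cathepsins, were listed as well. The granule proteases were at or near 0. Gzma had no read in any library, Gzmb had at most 6 counts, Elane at most 1, Ctsg at most 2 and Prtn3 at most 4. Gzmm reached at most 44 counts and Gzmc at most 29, and both passed the filter but neither passed the test with p21 or p16. The lymphocyte markers Cd3e, Cd3g, Cd8a and Ncr1 had no read in any library, and the listed markers of NK and T lymphocytes summed to at most 0.871 CPM.

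**Figure D4:**
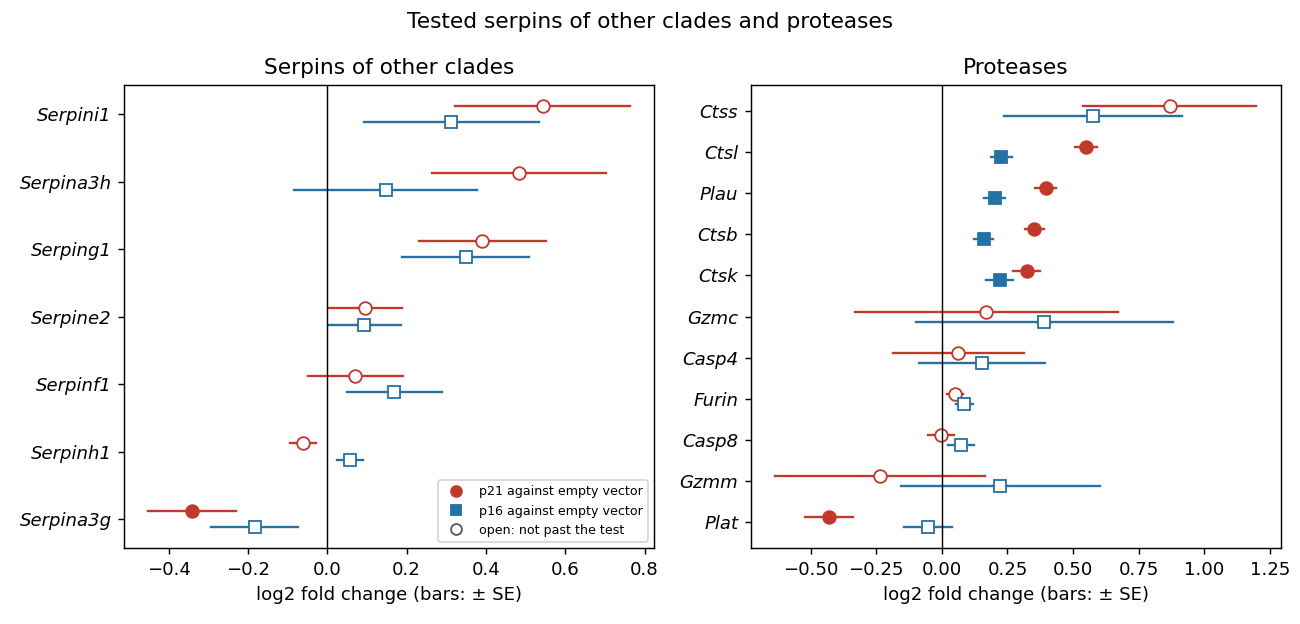
Tested serpins of other clades (left, 7 genes) and listed proteases (right, 11 genes) are ordered by their log2 fold change with p21 on the x axis, with circles for p21 and squares for p16 against the empty vector, bars of ± SE, and open symbols for genes that did not pass the test. The proteases Ctsl, Plau, Ctsb and Ctsk are filled in both comparisons, and Serpina3g and Plat are filled with p21, at -0.34 and -0.43.

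Of 11 tested proteases 4 rose and 1 fell with p21, where 19.8% of all tested genes rose and 20.1% fell. With p16, 4 rose and 0 fell, where 5.8% of all tested genes rose and 5.56% fell. The median log2 fold changes were 0.17 and 0.20, beside 0.0011 and 0.0017 over all genes. With p21, DESeq2, limma-voom and the replicate block each called 5 higher and 1 lower. The block called 24% of all genes higher there. At an unadjusted p under 0.05 edgeR had 5 higher and 0 lower with p16. DESeq2 and limma-voom each called 4 higher and 0 lower there. With the replicate block 6 rose with p16, where 11.3% of all genes were called higher. The 2 targets of Serpinb2 differed in direction with p21: Plau, which encodes urokinase, averaged 279 CPM in p21 libraries and 212 CPM in empty vector libraries (0.40 ± 0.04, edgeR adjusted p = 1.1e-05), and Plat, which encodes tissue plasminogen activator, averaged 59.8 CPM in p21 libraries and 80.7 CPM in empty vector libraries (-0.43 ± 0.092, edgeR adjusted p = 0.00266). With p16, Plau rose by 0.20 ± 0.04 (edgeR adjusted p = 0.00817) and Plat had a log2 fold change of -0.05 ± 0.091 (edgeR adjusted p = 0.773). Between p21 and p16 both differed, Plau by 0.20 ± 0.04 (edgeR adjusted p = 0.00753) and Plat by -0.38 ± 0.092 (edgeR adjusted p = 0.0188). Furin, the protease met by human SERPINB8, averaged 315 CPM in p21 libraries and 304 CPM in empty vector libraries (0.05 ± 0.031, edgeR adjusted p = 0.21). The lysosomal cathepsin genes Ctsl (0.55 ± 0.041, edgeR adjusted p = 8.26e-07), Ctsb (0.35 ± 0.035, edgeR adjusted p = 8.61e-06) and Ctsk (0.32 ± 0.051, edgeR adjusted p = 0.000301) rose with p21. In bulk libraries, a change in transcript per cell and a change in the share of cells that hold it cannot be told apart, here as for all genes above.

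Listed markers of other cell types moved in part with the groups. Their counts stand beside 19.8% of all tested genes higher and 20.1% lower with p21, and 5.8% higher and 5.56% lower with p16. Counts with the replicate block stand beside 24% of all genes called higher with p21 and 11.3% with p16. Of the fibroblast markers, 4 of 12 rose and 2 fell with p21. Among those that rose were S100a4 (log2 fold change 0.41 ± 0.092, edgeR adjusted p = 0.00358) and Thy1 (0.165 ± 0.037, edgeR adjusted p = 0.00338). Pdgfra, which encodes a PDGF receptor, averaged 16.8 CPM in p21 libraries and 33.5 CPM in empty vector libraries (log2 fold change -0.99 ± 0.18, edgeR adjusted p = 0.000916), and Col3a1 fell as well (-0.32 ± 0.072, edgeR adjusted p = 0.00338). With p16 none of the 12 passed edgeR without the block, 4 were higher and 1 lower at an unadjusted p under 0.05, DESeq2 called 2 higher and limma-voom 0. With the replicate block 5 of the 12 rose and 4 fell with p21, and 5 rose and 1 fell with p16. Of 7 tested endothelial markers 1 rose with p21, Esam (0.90 ± 0.23, edgeR adjusted p = 0.00703), and 1 fell, Erg (-1.61 ± 0.27, edgeR adjusted p = 0.000538). Erg also fell with p16 (-0.97 ± 0.26, edgeR adjusted p = 0.0305). With the replicate block 2 endothelial markers rose with p21 and 1 fell. Of 7 tested keratinocyte and epithelial markers 3 rose and 0 fell with p21 by edgeR, among them the desmosome gene Dsp (log2 fold change 1.36 ± 0.15, edgeR adjusted p = 1.65e-05) and Sprr1a, a gene of the cornified envelope (1.13 ± 0.15, edgeR adjusted p = 0.000106), and the list of 12 summed to 35.8 to 37.3 CPM in p21 libraries, 29.6 to 30.8 CPM in p16 libraries and 25.8 to 29.1 CPM in empty vector libraries. Krt10 (-0.30 ± 0.20, edgeR adjusted p = 0.25), Pkp1 (-0.20 ± 0.26, edgeR adjusted p = 0.578) and Trp63 (-0.55 ± 0.51, edgeR adjusted p = 0.42) did not pass with p21. Krt1 had no read in any library, and Krt5, Krt14, Epcam and Cdh1 were near 0. Among the leukocyte markers, Csf1r (0.86 ± 0.23, edgeR adjusted p = 0.00983), Tyrobp (1.23 ± 0.33, edgeR adjusted p = 0.0105) and Lyz2 (0.79 ± 0.23, edgeR adjusted p = 0.0161) rose with p21. With p16, 0 of 15 leukocyte markers passed edgeR, 3 had an unadjusted p under 0.05, DESeq2 called 2 and limma-voom 0, and the replicate block gave 5. The count with p21 was 2 without p21 replicate 1 or 3, and 3 without empty vector replicate 1 or 2. The part of these cell types in the serpin values was not tested.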

How the data were processed

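The deposited table holds raw read counts per gene symbol, 1 column per library, for 9 libraries in 3 groups of 3. Per the submitters' processing notes, TopHat2 2.0.14, Bowtie2 2.2.6, featureCounts 1.4.6 of Subread and the build mm10 were used; the annotation and strand setting are not given in the sources used here, nor is how reads matching several genes were counted. The counts went into edgeR 4.0.16 under R 4.3.3: filterByExpr by group (minimum count 10, minimum total 15), TMM scaling, 1 quasi-likelihood fit by group over all libraries (6 residual degrees of freedom) and two-sided F tests. The SE of a log2 fold change was taken as its size over the root of the F statistic. The common dispersion was 0.00533, and squared differences between libraries of a group exceeded counting error 5.26 to 16.8 times. Log2 CPM used a prior count of 2. Alternatives were other scalings, delivered genes left out, no filter, DESeq2 1.42.0, limma-voom (limma 3.58.1), only the groups compared, the replicate block, replicates 1 and 2 alone, and each library left out.

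No label says what a replicate number stands for. With group means subtracted, same-numbered libraries of different groups correlated over genes at 0.126 to 0.361 and differently numbered ones at -0.246 to 0.106, so the numbers pair the samples. The fit without the block stayed the main one, so its SEs, adjusted p-values and calls leave this pairing out. Blocked values stand beside the members, and blocked counts beside the lists, whose calls they change.

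Coordinates, exon lengths and overlaps come from GENCODE M21 (GRCm38), and promoters from RefSeq (GRCm38.p6), with 6 of 7 members matched. Python 3.11.15 with Biopython 1.88 aligned promoters locally, and matplotlib 3.10.9 drew the figures. The members, lists and tests were chosen with earlier results of these data known. Named genes are the members, up to 4 genes per list with the smallest adjusted p against the empty vector in either comparison, and the 5 genes most correlated with Serpinb9b; Plat, Furin, Serpinh1, Nqo2, Ripk1, 1110046J04Rik, Wrnip1 and the markers at or near 0, Pkp1 and Trp63 were added for their place beside a member or after their values were seen. The fit was tested on simulated data with known changes. A further gene is not reported here and was left out of the lists.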

Additional observations from a re-analysis of the deposited data

How the results depend on the processing

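The replicate block raised the members called from 1 to 4 of 7 with p16 and from 2 to 4 of 6 for p21 against p16, while the calls over all genes rose from 1616 to 3044 and from 1858 to 3214. For p21 against the empty vector the block left 4 of 6 members called. With p16, 2 members were called by DESeq2 (1998 of all genes) and by the fit of both groups alone (1916 of all genes), and 3 with replicates 1 and 2 only (1515 of all genes). Leaving out 1 library gave 1 to 2 members called with p16 (759 to 1894 of all genes), 0 to 3 for p21 against p16 (1074 to 1810 of all genes) and 3 to 5 with p21 (4617 to 5659 of all genes), the 5 being 4 higher and 1 lower without p21 replicate 3. For p21 against p16 the count of 0 members came without p16 replicate 2 or 3, where 4 members had an unadjusted p under 0.05 by edgeR. Of all genes with p16, 759 were called without p16 replicate 2, 826 without empty vector replicate 1, 921 without empty vector replicate 2, 984 without p16 replicate 3 and 1070 without p16 replicate 1. For p21 against p16, 1078 were called without p21 replicate 1, 1074 without p16 replicate 1 and 1151 without p16 replicate 2. The cause was not tested. Directions turned only for values that were not called: Serpinb9 with p21 over a range of -0.00377 to 0.206 when 1 library was left out, Serpinb1a with p16 from -0.437 to 0.475, and -0.00383 with replicates 1 and 2 alone, and Serpinb8 with p16 from -0.10 to 0.017. The rarest member, Serpinb1a, had 12 to 80 counts per library.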
